A study of Mus musculus with 8 samples.

Results

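The genes described here carry the glucagon signal inside the hepatocyte, from the receptor Gcgr through the adenylyl cyclases Adcy6 and Adcy9 and the subunits of protein kinase A (PKA) to the transcription factor Creb1 and its coactivator Crtc2. They were chosen by name for their place in this pathway and are 9 of the 45706 genes in the table. Messenger RNA of whole liver was sequenced from 4 WT and 4 SA/SA female C57BL/6J mice. All mice were 4 months old, ate regular chow and were fasted overnight. The SA/SA mice carried a knock-in (S155A), made in the whole body with CRISPR-Cas9 in the endogenous gene, that put alanine in place of a serine of PLIN5, a lipid droplet protein that PKA phosphorylates at this site. The paper states that the edit was sequenced in 1 founder and that later offspring were genotyped.

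Glucagon rises in fasting and binds its receptor on hepatocytes, which activates adenylyl cyclase through a stimulatory G protein. Cyclic AMP then binds the regulatory subunits of PKA and frees the catalytic subunits, which phosphorylate PLIN5 and CREB among many other substrates. CREB binds the cyclic AMP response element (CRE) near its target genes and, with coactivators of the CRTC family, turns on gluconeogenic genes such as Pck1 and G6pc. The comparison asks whether mice in which this phosphorylation site of PLIN5 is lost differed in the mRNA of the pathway that acts on it.

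Libraries held between 39709785 and 54540864 estimated counts, of which 26609 to 44413 fell on the 9 genes. Levels are given as CPM, a gene's count as a share of its library, after scaling of libraries by the trimmed mean of M-values (TMM). Single genes had between 308 counts (the lowest library for Creb1) and 22465 counts (the highest for Gcgr). The mRNA of Plin5 averaged 206 ± 32.3 CPM over the WT and 328 ± 118 CPM over the SA/SA mice (SD, n = 4 each), which did not pass adjustment (log2 fold change 0.67, 95% interval 0.13 to 1.21, unadjusted p = 0.0193, adjusted p = 0.993, edgeR), and such counts do not show the edit itself. The labels name hepatocytes as the cell type and liver as the tissue. Hepatocyte markers were abundant in every mouse, with a summed level of 95299 CPM or more, but markers of other cells were also counted. The most abundant marker of each list was Alb for hepatocytes (63058 CPM or more), Clec4f for Kupffer cells (69.9 to 138 CPM), Stab2 for endothelial cells (33.4 to 54.2 CPM), Dcn for stellate cells (60.9 to 170.1 CPM) and Hbb-bs for red blood cells (187 to 1153 CPM). For cholangiocytes it was Spp1 (21.9 to 74.0 CPM), for adipocytes Cidec (36.2 to 131 CPM), which fasted hepatocytes also express, for acinar cells Cela1 (3.86 to 9.75 CPM) and for lymphocytes Ighm (6.00 to 1164 CPM). In SA/SA replicate 3 the summed level of lymphocyte markers was 2059 CPM, against 18.6 to 44.6 CPM in the other mice. In WT replicate 2 that of acinar cell markers was 36.6 CPM, against 4.18 to 6.43 CPM in the other mice. The 7 stellate cell markers were each lower in SA/SA mice, with summed levels of 232 to 302 CPM in WT and 102 to 237 CPM in SA/SA mice, and no marker of any list passed adjustment. All 7 Kupffer cell markers were higher (median log2 fold change 0.23), as were all 8 lymphocyte markers (0.91, 3 of them at an unadjusted p under 0.05). All 5 red blood cell markers were lower (−0.54). Of 6 acinar cell markers 2 had enough counts to be tested. Both were lower (median −1.75, 1 of them at an unadjusted p under 0.05, edgeR). Whether such differences in cell content touched the values below was not tested, and fewer cells of a type cannot be told apart from less RNA per cell in bulk liver.

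The stretches of promoter that hold a CRE show where CREB could bind among these genes and its targets. Promoters of RefSeq genes (GRCm38.p6, from 250 bases before to 50 bases after each start) were searched on both strands for the full CRE, TGACGTCA, and for its short form, TGACG, which the full form contains. Of the 9 genes 7 matched an entry, and Adcy6 and Crtc2 did not. The full CRE stood in promoters of 1 of the 7, Prkar1a, and either form in 5 of the 7, where 2.03% of all 27025 genes held the full and 23.0% the short form. By promoter these were 2 and 7 of 15, where 1.79% of 32851 promoters held the full and 20.8% the short form. The 2 promoters with the full form are overlapping promoters of Prkar1a that share 1 site, counted in each. It began 49 bases before 1 annotated start and 38 bases after another. Among 17 CREB target genes, 14 matched (not Crem, Id1 and Sik1), of which 1, Dusp1, held the full CRE and 10 held either form. The promoters of Gcgr, Creb1 and G6pc held neither. Windows of 30 bases are printed on the gene's strand with the motif in capitals, first for the PKA subunits and Adcy9 and then for 4 targets. A match of letters is a description and shows no binding.
Prkar1a (chr11:109650889-109650918, plus strand): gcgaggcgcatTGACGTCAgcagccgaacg
Prkaca (chr8:83972846-83972875, plus strand): gtctgcaactcgCGTCActcatccaggagc
Prkacb (chr3:146813031-146813060, minus strand): ggggcttgaccgCGTCActtccggcgcgcc
Prkar2a (chr9:108692127-108692156, plus strand): cgcggccgcgtgCGTCAcaacccgggcgcc
Adcy9 (chr16:4420505-4420534, minus strand): cggacccggcggTGACGtgcgcgggccgcg
Dusp1 (chr17:26508597-26508626, minus strand): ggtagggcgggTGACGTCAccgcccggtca
Pck1 (chr2:173152971-173153000, plus strand): gcctgccccttaCGTCAgaggcgagcctcc
Ppargc1a (chr5:51567757-51567786, minus strand): ggtgccctcccaCGTCActgagctccagtg
Nr4a1 (chr15:101266794-101266823, plus strand): cccctctccatgCGTCAcggagcgcttaag
The printed motif began 49 bases before an annotated start in Prkar1a and in Ppargc1a. It began 120 bases before in Prkaca, 102 in Prkacb, 4 in Prkar2a and 24 in Adcy9. In Dusp1 it began 143, in Pck1 90 and in Nr4a1 40 bases before. Not every site is printed. The same Prkaca promoter also held the short form 6 bases before its start. That of Nr4a1 also held it 233, 213 and 69 bases before, and another promoter of Prkar1a 151 bases before. The PKA regulatory subunit gene Prkar1a thus held the same 8-base element as the classical cyclic AMP target Dusp1, a phosphatase of MAP kinases.

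None of the 9 genes differed between SA/SA and WT mice at an adjusted p under 0.05 (edgeR quasi-likelihood test with Benjamini-Hochberg adjustment over 14629 genes), where the share of all genes called was 0%. At an unadjusted p under 0.05 there were 0 of 9 genes, where 3.4% of all genes lay. DESeq2 and limma-voom likewise called 0 of the 9, although DESeq2 called 7 genes elsewhere in the table. The 4 SA/SA values overlapped the 4 WT values for all 9 genes, while 2.3% of all genes had groups that did not overlap. By sign, 3 genes were higher and 6 lower in SA/SA mice, with a median log2 fold change of −0.065 against −0.0050 over all genes tested. When single mice were left out, this median lay between −0.098 (without WT replicate 4) and −0.0017 (without SA/SA replicate 3). The data still limit how large a difference could be: the 95% intervals of the 9 log2 fold changes all lay between −0.85 and 0.81, short of a change of 2 times in either direction.

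**Figure D1:**
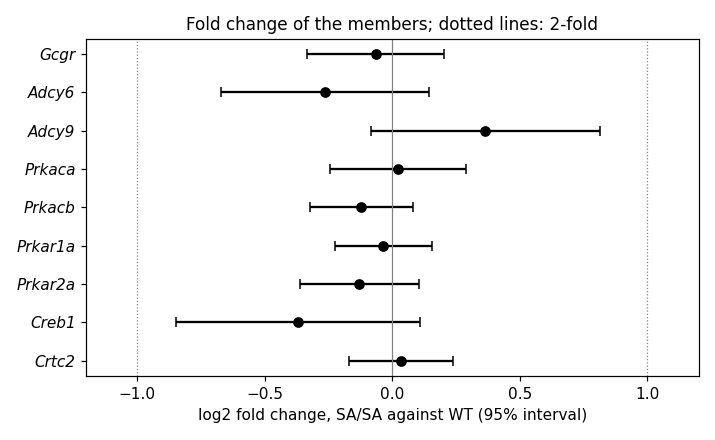
Log2 fold change of each gene, SA/SA against WT mice, with its 95% interval from edgeR (4 mice per genotype) on the horizontal axis. Every interval crosses 0 and none reaches the dotted lines at a change of 2 times.

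The receptor Gcgr (ENSMUSG00000025127, chr11:120530699-120538986 in GRCm38, plus strand) was read at 359.5, 448, 422 and 373 CPM in WT replicates 1 to 4 and at 406, 382, 321 and 422 CPM in SA/SA replicates 1 to 4. The groups overlapped across most of their range, with the lowest value in SA/SA replicate 3 and the highest in WT replicate 2. The log2 fold change was −0.065 (SE 0.12, 95% interval −0.33 to 0.20, adjusted p = 0.996, edgeR), and 0.013 without SA/SA replicate 3, the mouse with the high lymphocyte markers. A gene on the opposite strand, Gm11789, overlaps it, and the use of strand in the counting is not given in the sources used here.

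Of the adenylyl cyclases, Adcy6 (ENSMUSG00000022994, chr15:98589973-98610076, minus strand) encodes a form that is inhibited by calcium. Its levels were 70.6, 101, 86.2 and 70.8 CPM in WT and 92.8, 59.7, 54.6 and 66.7 CPM in SA/SA mice, replicates 1 to 4 in order. In SA/SA mice 3 of 4 values lay below every WT value, and SA/SA replicate 1 lay above 3 of the 4 WT mice. The log2 fold change was −0.26 (SE 0.18, 95% interval −0.67 to 0.14, adjusted p = 0.993, edgeR). Without SA/SA replicate 1 the groups did not overlap and it was −0.45 (unadjusted p = 0.0168, adjusted p = 0.798), in a comparison where 6.75% of genes did not overlap and 6.02% had an unadjusted p under 0.05. Adcy9 (ENSMUSG00000005580, chr16:4287529-4420498, minus strand) encodes a widely expressed cyclase that responds only weakly to forskolin. Its levels were 20.5, 13.1, 12.7 and 16.5 CPM in WT and 14.3, 20.8, 25.7 and 20.1 CPM in SA/SA mice. Here 2 SA/SA mice stood above every WT mouse and SA/SA replicate 1 lay among the low WT mice. This gave a log2 fold change of 0.36 (SE 0.20, 95% interval −0.084 to 0.81, adjusted p = 0.993, edgeR), which was 0.23 without SA/SA replicate 3 and 0.52 without WT replicate 1.

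The catalytic subunit Cα gene Prkaca (ENSMUSG00000005469, chr8:83972993-83996443, plus strand) was read at 49.3, 60.9, 64.6 and 49.7 CPM in WT and 53.8, 64.1, 56.3 and 53.8 CPM in SA/SA mice. All 4 SA/SA values lay inside the range of the WT values. Between genotypes the log2 fold change was 0.022 (SE 0.12, 95% interval −0.24 to 0.29, adjusted p = 0.998, edgeR), and its sign depended on the scaling and on the mice included. The gene of the other main catalytic subunit, Prkacb (ENSMUSG00000005034, chr3:146729574-146812990, minus strand), varied little in WT mice, at 33.4, 32.1, 34.0 and 33.3 CPM. In SA/SA mice it was at 30.4, 30.3, 33.6 and 27.8 CPM, so that 3 of the 4 lay below every WT mouse and SA/SA replicate 3 did not. The log2 fold change was −0.12 (SE 0.091, 95% interval −0.32 to 0.079, adjusted p = 0.993, edgeR), and without SA/SA replicate 3 it was −0.17 with groups that did not overlap, as for 3.95% of genes in that comparison.

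The regulatory subunits hold the catalytic subunits inactive until cyclic AMP binds. Prkar1a (ENSMUSG00000020612, chr11:109649405-109669656, plus strand), the RIα gene, was the steadiest of the 9, at 129, 122, 128 and 128 CPM in WT and 129, 124, 115 and 127 CPM in SA/SA mice. The highest of the 8 mice was 1.12 times the lowest. Its log2 fold change of −0.036 (SE 0.085, adjusted p = 0.996, edgeR) had a 95% interval equal to 0.855 to 1.11 times the WT level. Prkar2a (ENSMUSG00000032601, chr9:108689314-108750436, plus strand), the RIIα gene, was at 52.3, 48.2, 43.8 and 43.6 CPM in WT and 45.8, 45.1, 43.4 and 37.3 CPM in SA/SA mice. The lowest 2 mice were SA/SA and the highest 2 were WT, with overlap between them. For Prkar2a the log2 fold change was −0.13 (SE 0.10, 95% interval −0.36 to 0.10, adjusted p = 0.993, edgeR).

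Creb1 (ENSMUSG00000025958, chr1:64532645-64604548, plus strand), the transcription factor that PKA activates, was at 14.9, 8.07, 10.9 and 9.20 CPM in WT and 10.8, 6.64, 8.13 and 7.73 CPM in SA/SA mice. Over all 8 mice it had the widest range of the 9 genes, 2.24 times between the highest and the lowest. Its coefficient of variation was the highest of the 9 in WT mice (27.6%) but not in SA/SA mice (21.2%, against 24.8% for Adcy6 and 23.0% for Adcy9). Of the 4 SA/SA mice, 2 lay below every WT mouse. The log2 fold change was −0.37 (SE 0.22, 95% interval −0.85 to 0.11, adjusted p = 0.993, edgeR), the lowest of the 9, and it ranged from −0.52 without SA/SA replicate 1 to −0.17 without WT replicate 1. Crtc2 (ENSMUSG00000027936, chr3:90254163-90264125, plus strand), the coactivator that moves to the nucleus when it is dephosphorylated, was at 45.4, 39.98, 42.5 and 41.3 CPM in WT and 40.7, 40.7, 45.1 and 46.7 CPM in SA/SA mice. The groups covered almost the same range, with a log2 fold change of 0.034 (SE 0.092, 95% interval −0.17 to 0.24, adjusted p = 0.996, edgeR).

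**Figure D2:**
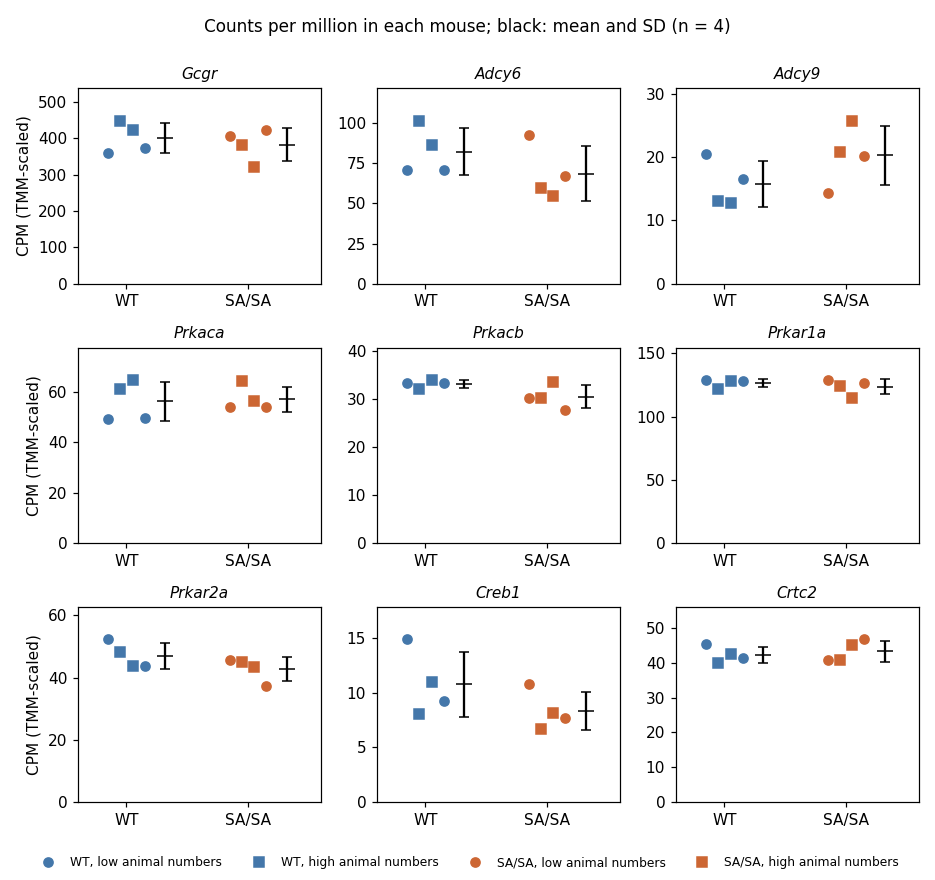
CPM of each gene (vertical axes, from 0, TMM-scaled) in each of the 4 WT (blue) and 4 SA/SA (orange) mice. Circles are mice with low and squares mice with high animal numbers, and black bars are the mean and SD. WT and SA/SA values overlap in every panel. Only for Gcgr do the genotypes stand apart in both circles and squares and in opposite order.

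The animal numbers in the labels fall into 2 series, low (below 200, for replicates 1 and 4) and high (above 800, for replicates 2 and 3), whose meaning the labels do not give. In the low series Gcgr was higher in both SA/SA mice (406 and 422 CPM) than in both WT mice (359.5 and 373 CPM), whereas in the high series it was lower (382 and 321 against 448 and 422 CPM). The mean difference in log2 CPM was 0.18 in the low and −0.31 in the high series, and the interaction of genotype with series was −0.49 (SE 0.18, unadjusted p = 0.0273, adjusted p = 0.387, edgeR). Adcy6 had differences of the same signs, 0.15 in the low and −0.71 in the high series and an interaction of −0.89 (SE 0.24, unadjusted p = 0.00545, adjusted p = 0.287, edgeR). Its low-series difference rested on SA/SA replicate 1 (92.8 CPM), since SA/SA replicate 4 (66.7 CPM) lay below both WT mice of that series. Adcy9 had the opposite signs, −0.11 in the low and 0.84 in the high series, with an interaction of 0.95 (SE 0.28, unadjusted p = 0.00923, adjusted p = 0.307, edgeR). Its low-series difference also rested on SA/SA replicate 1 (14.3 CPM). SA/SA replicate 4 (20.1 CPM) lay between the WT mice of that series (20.5 and 16.5 CPM). The receptor and both cyclases were therefore the 3 of 9 genes with an unadjusted interaction p under 0.05, where 11.1% of all genes had one. Without SA/SA replicate 3, which left 1 SA/SA mouse in the high series that is assumed to vary like the others, the interactions were −0.37 for Gcgr (unadjusted p = 0.106, edgeR), −0.82 for Adcy6 (unadjusted p = 0.0220, edgeR) and 0.79 for Adcy9 (unadjusted p = 0.0392, edgeR). The unadjusted p for Gcgr was also above 0.05 without WT replicate 1 (0.0514), WT replicate 2 (0.0710), SA/SA replicate 1 (0.0517) or SA/SA replicate 4 (0.0783), as in 5 of the 8 omissions in all. None of the 9 passed adjustment in the interaction, and the share of all genes that did was 0%. Gcgr was also the 1 gene of the 9 whose groups did not overlap within either series and stood in opposite order, as 9.49% of all genes did. Of the genes downstream of the cyclases, Creb1 differed alike in both series (−0.35 in the low and −0.35 in the high series). The other 5 had an unadjusted interaction p of 0.307 or more.

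**Figure D3:**
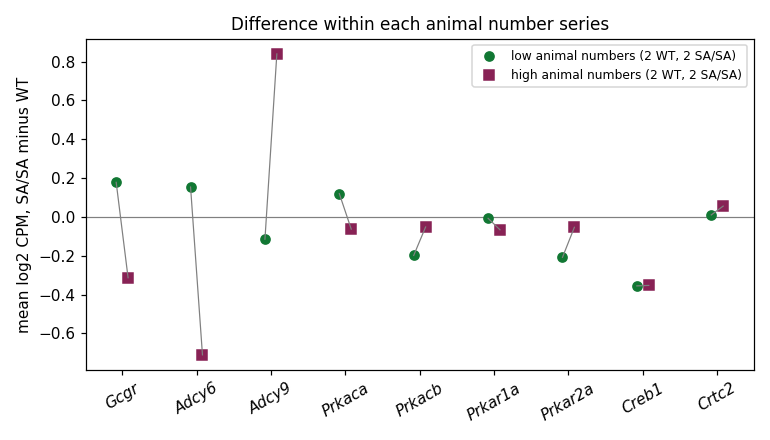
Mean log2 CPM of SA/SA minus WT mice (vertical axis) for each gene within the low (circles) and high (squares) animal number series, 2 mice of each genotype in each. Gcgr and Adcy6 are above 0 in the low and below 0 in the high series, Adcy9 is the reverse, and the 2 points of Creb1 coincide.

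Levels were compared between genes as CPM per kilobase of the union of annotated exons (GENCODE M21). Gcgr stood highest, at 149 ± 15.6 CPM per kilobase over the 8 mice (SD), followed by Prkar1a at 29.0, Prkaca at 22.7, Adcy6 at 11.1, Crtc2 at 10.4, Prkar2a at 7.05, Prkacb at 3.63, Adcy9 at 3.46 and Creb1 at 0.694 CPM per kilobase. Adcy6 and Crtc2 could not be ordered, each being the higher in 4 of 8 mice, nor could Prkacb and Adcy9. The other neighbours kept their order in 8 of 8 mice. With the mean length of coding transcripts as divisor Prkar2a (25.1) lay above Crtc2 (15.6 CPM per kilobase) in 8 of 8 mice, so their order depends on the length used. Adcy9 and Creb1 (3.87 and 3.05 CPM per kilobase) then could not be ordered either, with Adcy9 the higher in 5 of 8 mice, and Prkaca lay above Adcy6 in 6 of 8. By that divisor Adcy6 was above Crtc2, and Prkacb above Adcy9, in 8 of 8 mice.

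**Figure D4:**
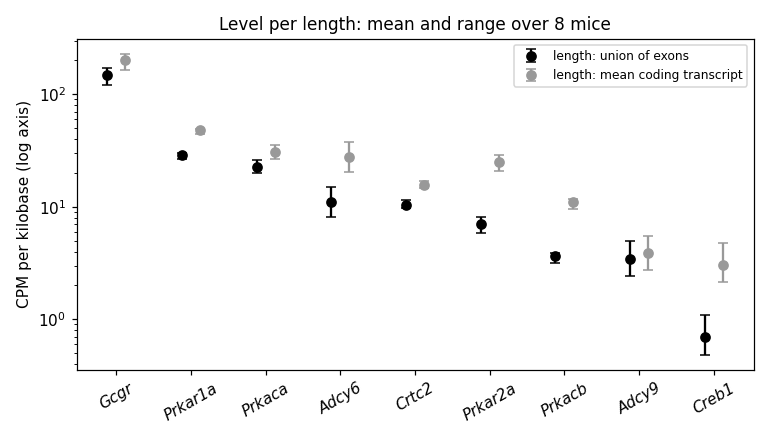
Level per length of each gene (vertical axis, CPM per kilobase, log axis), with the mean and the range over 8 mice. Black points use the union of exons and grey points the mean length of coding transcripts; Gcgr is highest by both, and Prkar2a and Crtc2 exchange places.

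The make-up of each step was described as shares of the summed level per kilobase, ratios that were chosen after the values had been seen. Adcy6 made up 68.3 ± 7.38% of the summed level of the cyclases listed in WT and 60.1 ± 8.39% in SA/SA mice (SD, n = 4, two-sided exact permutation p = 0.1429). Adcy9 made up 17.4 ± 5.05% in WT and 23.9 ± 7.13% in SA/SA mice (exact permutation p = 0.2). Prkaca made up 85.5 ± 1.75% of the catalytic and Prkar1a 79.4 ± 1.34% of the regulatory PKA transcripts in WT mice, against 86.8 ± 1.18% and 80.6 ± 1.6% in SA/SA mice. Cα and RIα were thus the main PKA transcripts in both genotypes. Transcripts of regulatory subunits exceeded those of catalytic subunits 1.42 ± 0.189 times in WT and 1.35 ± 0.122 times in SA/SA mice (exact permutation p = 0.5429). With the mean length of coding transcripts as divisor Adcy9 made up 9.23% in WT and 13.4% in SA/SA mice (exact permutation p = 0.1429). By that divisor Adcy6 made up 80.7% in WT and 74.3% in SA/SA mice, Prkaca 72.6% and 74.7%, and Prkar1a 64.5% and 66.1%. The ratio of regulatory to catalytic transcripts was then 1.81 in WT and 1.73 in SA/SA mice. The shares and this ratio thus depend on the length used. For none of these ratios did the exact permutation test give a p under 0.05, by either length.

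Among 68 other genes of the pathway (G proteins and their receptors, cyclases, PKA subunits and inhibitors, phosphodiesterases, anchoring proteins, Epac exchange factors, and CREB family members with their coactivators and kinases), 61 had enough counts to be tested. By edgeR, DESeq2 and limma-voom 0 passed adjustment, and 21 were higher and 40 lower, with a median log2 fold change of −0.071. Over all genes tested 7138 were higher and 7491 lower, with a median of −0.0050. The phosphodiesterase Pde3b, which degrades cyclic AMP and is activated by insulin signalling, was the 1 gene of the 61 with an unadjusted p under 0.05, a smaller share than the 3.4% of all genes. It was at 48.5, 35.4, 39.5 and 30.7 CPM in WT and 25.3, 28.5, 33.6 and 27.6 CPM in SA/SA mice, and only SA/SA replicate 3 lay above a WT mouse. Its log2 fold change was −0.42 (SE 0.15, unadjusted p = 0.0181, adjusted p = 0.993, edgeR), and the unadjusted p was 0.0562 without WT replicate 1 and 0.0512 without SA/SA replicate 1. The next lowest p among genes lower in SA/SA mice belonged to the anchoring protein gene Akap13 (log2 fold change −0.26, unadjusted p = 0.0714) and the phosphodiesterase gene Pde4b (−0.74, unadjusted p = 0.0768). Among higher genes they belonged to the cyclase Adcy4 (0.31, unadjusted p = 0.0896), the Epac gene Rapgef4 (0.15, unadjusted p = 0.258) and the phosphodiesterase Pde10a (0.55, unadjusted p = 0.268). Of the 61, 1 had groups that did not overlap, with SA/SA below WT, as 1.36% of all genes did. That was the regulatory subunit gene Prkar1b, named after its values were seen, which had only 20 to 43 counts in WT and 1 to 21 in SA/SA mice (0.395 CPM or more against 0.389 CPM or less).

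The transcripts of CREB target genes were listed as a readout downstream of Creb1 and Crtc2. Whether they depended on CREB in these livers was not tested. All 17 targets were tested and 0 passed adjustment by edgeR, DESeq2 or limma-voom. In SA/SA mice 6 were higher and 11 lower, with a median log2 fold change of −0.19. All genes tested split into 7138 higher and 7491 lower, with a median of −0.0050. Within the low series 6 targets were higher (median difference in log2 CPM −0.17) and within the high series 9 (median 0.0053). Sik1, Crem, Pde4b and Pde4d, each lower, are also among the other pathway genes above. G6pc, the catalytic subunit of glucose-6-phosphatase that releases glucose at the end of gluconeogenesis, was at 213, 242, 335 and 451 CPM in WT and 154, 181, 195 and 208 CPM in SA/SA mice. Every SA/SA mouse lay below every WT mouse, and G6pc was the 1 target of 17 of which this was true (1.36% of all genes). It was also the 1 target with an unadjusted p under 0.05 (3.4% of all genes). The log2 fold change was −0.75 (SE 0.22, unadjusted p = 0.00655, adjusted p = 0.993, edgeR), with differences of −0.80 in the low and −0.60 in the high series. The exact permutation p was 0.0286, which is the smallest that 4 mice against 4 can give. Without WT replicate 4 the log2 fold change was −0.51, and over all alternatives the adjusted p was 0.576 or more. Pck1, which catalyses the first committed step of gluconeogenesis, did not share this order, at 2924 ± 847 CPM in WT and 2778 ± 612 CPM in SA/SA mice (log2 fold change −0.074, adjusted p = 0.996, edgeR). By qPCR the paper reported G6pc as unchanged in SA/SA livers of females and of young males, with a trend to lower levels in old males.

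Besides Pde4b (−0.74), the lower target with the next smallest p was the insulin receptor substrate Irs2 (log2 fold change −0.68, unadjusted p = 0.159). WT replicate 4 stood apart for both. Irs2 was at 34.1 CPM in it, against 8.42 to 11.3 CPM in the other WT and 6.23 to 13.6 CPM in SA/SA mice. Pde4b was at 17.0 CPM, against 4.05 to 8.23 CPM in the other WT and 4.38 to 6.07 CPM in SA/SA mice. The higher targets with the smallest p were the clock gene Per1 (0.23, unadjusted p = 0.226), Junb of the AP-1 family (0.60, unadjusted p = 0.258) and the inhibitor of differentiation Id1 (0.30, unadjusted p = 0.411). Irs2 and the tyrosine aminotransferase gene Tat were the 2 of 17 targets with an unadjusted interaction p under 0.05, a share near the 11.1% of all genes. The interaction was 2.13 for Irs2 (unadjusted p = 0.00974, adjusted p = 0.309, edgeR) and 1.44 for Tat (unadjusted p = 0.00368, adjusted p = 0.282, edgeR). WT replicate 4, with the high Irs2 value, is a mouse of the low series. WT replicate 1 (10.2 CPM) also lay above both SA/SA mice of that series (6.23 and 7.34 CPM). In the high series both SA/SA mice (12.8 and 13.6 CPM) lay above both WT mice (11.3 and 8.42 CPM). Irs2 and Tat were the 2 of 17 targets whose groups stood apart within each series in opposite order, as 9.49% of all genes did.

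Single mice set the level of several targets. Nr4a1, an orphan nuclear receptor gene that cyclic AMP induces within minutes, was at 2.24, 3.53, 8.27 and 92.8 CPM in WT and 3.58, 2.27, 2.24 and 29.1 CPM in SA/SA mice. Replicate 4 of each genotype stood far above the other 3. WT replicate 4 also held the highest WT value of Sik1, a kinase that phosphorylates CRTC proteins (76.9 CPM, 3.42 times the next WT mouse). The same mouse was highest for Irs2 (34.1 CPM, 3.02 times the next) and Pde4b (17.0 CPM, 2.07 times the next). SA/SA replicate 4 held the highest value of the coactivator gene Ppargc1a (29.5 CPM, 3.59 times the next SA/SA mouse), and SA/SA replicate 3 that of Fos among SA/SA mice (4.49 CPM, 2.32 times the next). WT replicate 4 was the highest WT mouse for 10 of the 17 targets, and among SA/SA mice replicate 4 was the highest for 9 and replicate 3 for 7. How often each mouse was the highest over all genes was not counted. These numbers therefore do not show a trait of the targets. The summed level of red blood cell markers was highest in WT replicate 4 (2647 CPM, against 411 to 1462 CPM in the other 7 mice) and was 989 CPM in SA/SA replicate 4. Whether this bore on the targets was not tested. The median deviation of the targets from each gene's mean was 0.50 on the log2 scale in WT replicate 4 and 0.20 in SA/SA replicate 4. That of the 9 pathway genes was −0.050 and −0.065, the lowest of the 8 mice, where the other 6 lay between −0.044 and 0.097.

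**Figure D5:**
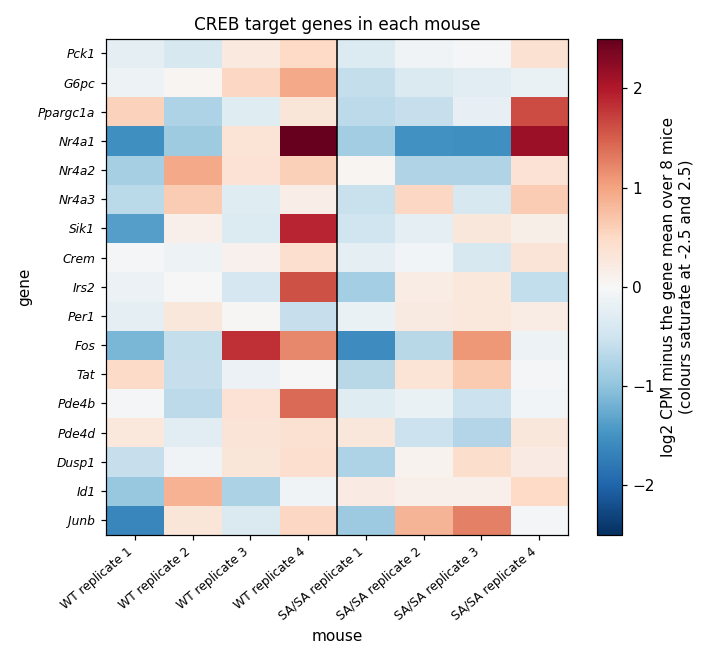
Log2 CPM of 17 CREB target genes (rows) in each mouse (columns, WT left of the line), as the deviation from each gene's mean over 8 mice. WT replicate 4 is above the mean for most targets, and G6pc is higher in each WT mouse than in any SA/SA mouse.

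The genes whose pattern over the 8 mice was nearest to that of 3 of the 9 were found by the root mean square difference of centred log2 CPM among 9165 genes. For Gcgr they were Guk1 (0.032), Spast (0.043) and Gins4 (0.046), where the spread of Gcgr itself was 0.15. For Prkaca they were Capns1 (0.041), Cxx1a (0.050) and Ptms (0.052), where its own spread was 0.14. Those nearest to Creb1 were Senp5 (0.12), Zfp809 (0.12) and Prkdc (0.13), against a spread of 0.34. With 8 mice and this many candidates, near patterns are a description of these libraries.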

How the data were processed

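Poly(A)-selected liver RNA was sequenced with a stranded kit (100 bp paired-end), 1 library per mouse. The deposited values are estimated counts that the authors obtained with salmon for each gene and scaled by average transcript length, with no correction for depth; the version, annotation and strand setting are not given in the sources used here. Per the labels' processing notes, STAR, DESeq2 and the build GRCm38 were also used. Length scaling can move a gene's count where isoforms differ. The estimated counts were rounded and filtered with filterByExpr, which left 14629 of 45706 genes, and compared by edgeR 4.0.16 (R 4.3.3; TMM, quasi-likelihood, no block). DESeq2 1.42.0, limma-voom (limma 3.58.1), other scalings, filters and blocks, and leaving out each mouse were alternatives. Log2 CPM used a prior count of 2. Exact permutation tests were two-sided. Positions are from GENCODE M21. The labels name separate biological replicates, and no 2 libraries were copies (chi-square of 40.2 per gene or more). The tests were checked on simulated data.

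The 9 genes, the gene lists and tests were chosen with earlier results of these data known. Named besides the 9 genes are, in the pathway and target lists, the 3 with the smallest p in each direction, targets with 1 mouse at 2 times or more the next of its genotype, the 3 nearest patterns, Plin5 and the most abundant marker of each cell type. A search of proteins for PKA sites was not run.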

Additional observations from a re-analysis of the deposited data

Results flagged for a closer look

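The interaction of genotype with the animal number series for Gcgr was −0.49 on the log2 scale (unadjusted p = 0.0273, adjusted p = 0.387, edgeR), since both SA/SA mice lay above both WT mice in the low series and below them in the high series. Over the alternatives its adjusted p was between 0.246 and 0.754.

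Single mice far from the other 3 of their genotype were searched for in 52 groups, of which chance alone gives about 3. For Prkar1a it was WT replicate 2, at 122 CPM against 128 to 129 CPM in the other WT mice. For Nr4a1 these were WT replicate 4, at 92.8 CPM, and SA/SA replicate 4, at 29.1 CPM. For Irs2 it was WT replicate 4, at 34.1 CPM. For Ppargc1a it was SA/SA replicate 4, at 29.5 CPM.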

How the results depend on the processing

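None of the 9 genes, the other pathway genes or the targets passed adjustment under any alternative of edgeR, DESeq2 or limma-voom, and the adjusted p of the 9 genes was 0.798 or more. The number of the 9 genes at an unadjusted p under 0.05 was 0 to 3 when a mouse was left out: Adcy6, Adcy9 and Creb1 without SA/SA replicate 1, and Adcy9 without WT replicate 1, where 6.02% and 4.49% of all genes had one. Those whose groups did not overlap numbered 0 to 1, which was Adcy6 without SA/SA replicate 1 and Prkacb without SA/SA replicate 3. Leaving out a mouse moved the log2 fold change of Gcgr between −0.12 and 0.013 (above 0 without SA/SA replicate 3), of Prkaca between −0.033 and 0.097, and of Crtc2 between −0.0037 and 0.074. Scaling by library size alone gave −0.021 for Prkaca and −0.0020 for Crtc2, with the median of all genes at −0.042. The cause of these reversals was not tested. With the replicate number as a block 1 gene, Creb1, had an unadjusted p under 0.05 (0.0225, adjusted p = 0.967), where 3.96% of all genes did, and it changed no other call. Same-numbered mice did not all deviate together (correlations of 0.056, 0.17, −0.11 and 0.13, with replicate 3 nearer to another number), so the numbers were not taken to pair the mice, although same-numbered mice are of the same animal number series. The length used moved 8 of 9 levels per kilobase by more than the spread between mice. The adjusted p of the interaction was between 0.0536 and 0.608 for Adcy6 and between 0.107 and 0.644 for Adcy9. With 4 mice per genotype, changes smaller than the intervals given could not be shown.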
